A study of Mus musculus with 24 samples.

Results

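The comparison described here set bulk RNA-seq libraries of liver neutrophils (n = 2) against those of blood neutrophils (n = 3), all from NOD.c3c4 mice that received no therapy. These 5 libraries were chosen by their tissue and treatment labels from the 24 samples of the series, and every gene of the table that holds them was described, with genes of liver parenchyma kept apart from genes of leukocytes. NOD.c3c4 is an inbred mouse line that develops autoimmune biliary disease, so the untreated animals are not healthy controls. The other arm of the same table, liver (n = 2) and blood (n = 2) neutrophils from NOD.c3c4 mice given 10 intravenous doses of PDC166-coated NPs, entered the fit to estimate the spread and is given only where it bears on the untreated libraries. The labels name neither the method of neutrophil isolation nor the age of the mice, and leave unstated whether each replicate is another animal. The p-values therefore cover only the variation among these libraries, some of which may be technical.

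Neutrophils are short-lived phagocytes that are made in the bone marrow, packed in sequence with azurophil, specific and gelatinase granules, and released into blood, where they respond to chemokines through receptors such as CXCR2. In liver they move through narrow sinusoids lined by fenestrated endothelium and lie beside hepatocytes, large cells rich in RNA that make most plasma proteins, the urea cycle enzymes and the bile acids. A marker such as albumin, made by hepatocytes, therefore separates parenchyma from leukocytes, while S100A8, a subunit of calprotectin, is one of the most abundant neutrophil transcripts, and PF4 is a platelet granule chemokine.

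The upstream sequences of these 3 genes are shown because they stand for the hepatocyte, neutrophil and platelet genes described below. Each line is the 250 bases before RefSeq's start site on the plus strand, on build GRCm38.p6, at chr5:90460620-90460869 for Alb, chr3:90668821-90669070 for S100a8 and chr5:90772185-90772434 for Pf4, and capitals mark matches, on either strand, to TTGCNNAA (a C/EBP-type motif, for a factor family used by hepatocytes and granulocytes) or GAGGAAGT (a PU.1-type motif, for a myeloid factor).
Alb: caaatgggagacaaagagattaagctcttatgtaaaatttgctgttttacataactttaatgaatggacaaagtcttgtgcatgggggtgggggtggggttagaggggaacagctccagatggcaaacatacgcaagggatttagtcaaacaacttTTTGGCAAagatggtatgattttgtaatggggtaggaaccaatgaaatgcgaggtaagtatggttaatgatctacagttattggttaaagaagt
S100a8: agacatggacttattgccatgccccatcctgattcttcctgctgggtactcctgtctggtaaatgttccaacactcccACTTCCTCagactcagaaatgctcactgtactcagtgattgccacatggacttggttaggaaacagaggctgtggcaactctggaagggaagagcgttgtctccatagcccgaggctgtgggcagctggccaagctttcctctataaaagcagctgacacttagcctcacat
Pf4: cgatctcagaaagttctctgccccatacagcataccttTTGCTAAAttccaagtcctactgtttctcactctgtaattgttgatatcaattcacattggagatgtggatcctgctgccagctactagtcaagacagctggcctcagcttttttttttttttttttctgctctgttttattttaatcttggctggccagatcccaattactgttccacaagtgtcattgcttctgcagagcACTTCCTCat
The Alb window held 1 C/EBP-type match, 94 bases before the start. The S100a8 window held 1 PU.1-type match, 172 bases before the start, and the Pf4 window held both, at 212 and 10 bases. Of 27025 genes, 10.8% held TTGCNNAA and 2.79% held GAGGAAGT in at least 1 promoter window of this length. The motifs overlapped in 1 of the 32851 windows. By the same count of genes, TTGCNNAA was found for 8 of 17 hepatocyte secreted proteins (47.1%) and 3 of 19 hepatocyte metabolic enzymes (15.8%). It was found for 5 of 17 neutrophil identity genes (29.4%), 4 of 13 specific granule genes (30.8%) and 1 of 9 platelet genes (11.1%). GAGGAAGT was found for 0 of 17 secreted proteins and 1 of 19 metabolic enzymes (5.26%). For neutrophil identity genes it was found in 3 of 17 (17.6%), for specific granule genes in 3 of 13 (23.1%) and for platelet genes in 1 of 9 (11.1%). A match describes letters only and says nothing of binding.

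The liver libraries held 34753450 and 38003135 estimated counts and the blood libraries 40327500, 41060958 and 34724353. Levels below are library-scaled counts (CPM) after scaling by the trimmed mean of M values (TMM), given in the order replicate 1, 2 for liver and 1, 2, 3 for blood, and differences are log2 fold changes of liver over blood from edgeR's quasi-likelihood test, called at a Benjamini-Hochberg adjusted p under 0.05. The libraries were composed differently before any gene was compared. S100a9 alone took 2.05% and 1.96% of the counts in liver but 5.07%, 6.26% and 9.95% in blood, and the TMM factors were 1.25 and 1.14 in liver against 0.901, 0.881 and 0.698 in blood. Both liver libraries held markers of neutrophils, as labelled, and also markers of hepatocytes at levels far over those of blood, and the part of hepatocyte RNA in the differences below was not tested. In bulk libraries, fewer cells of a type and less RNA per cell cannot be told apart.

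Of 16719 genes tested, 5953 (35.6%) were higher in liver and 4797 (28.7%) were lower, and 8881 of these 10750 calls were at least 2-fold. For 12272 genes (73.4%) the 2 liver values did not overlap the 3 blood values. The calls were also counted by the level in blood. That level is 1 side of the contrast, so the split between these groups is partly set by the grouping. Of 4480 genes under 1 CPM in every untreated blood library, 1970 were higher in liver (44.0%) and 266 lower (5.94%), with a median log2 fold change of 1.49. Of 5999 genes over 10 CPM in every blood library, 1135 were higher (18.9%) and 3458 lower (57.6%), with a median of -0.78. Over all tested genes the median was 0.10. With size factors taken from 20 neutrophil identity genes instead, a setting added after the data were seen, 12128 genes were higher (72.5%), 132 were lower (0.790%) and the median was 2.14. Both medians are therefore given for the leukocyte and mitochondrial lists below, and a value called identity-scaled uses the second scaling. Counts for lists are to be read beside the shares of all tested genes. These are 35.6% higher and 28.7% lower by TMM, and 72.5% and 0.790% on the identity scale. Of the genes named below as lower in liver, those of platelets, Alox12, Nrgn, Retnlg, Mmp8, Osm, Itga6 and Pecam1 were also lower on the identity scale, and the others were not.

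**Figure D1:**
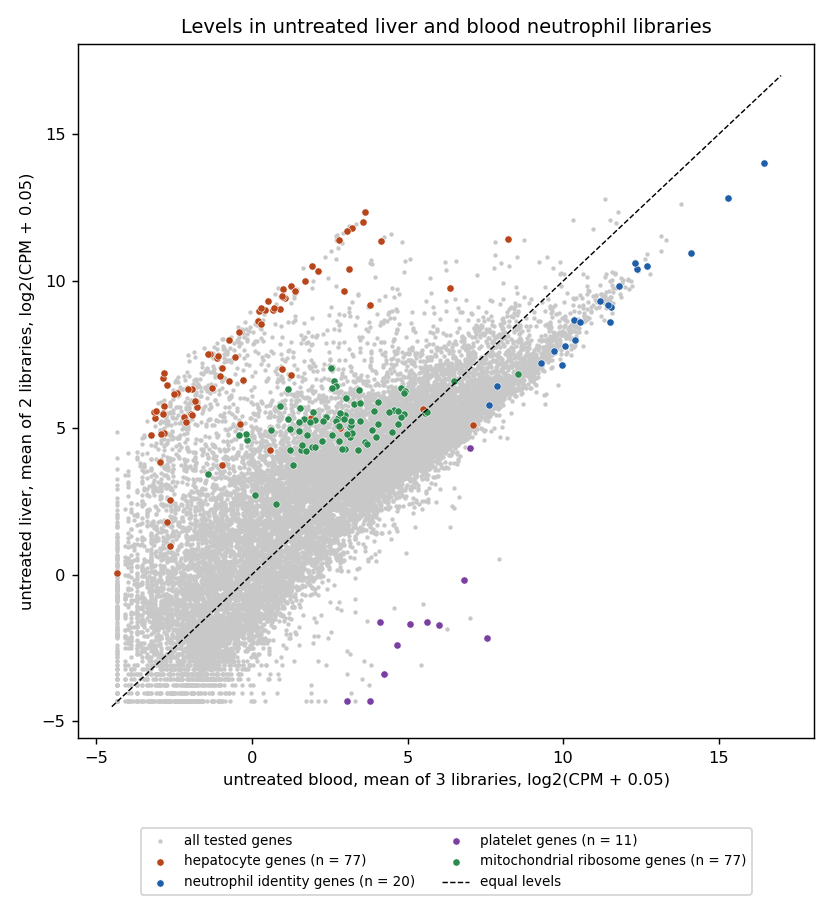
Mean level of each tested gene in untreated blood (x axis) and untreated liver (y axis) neutrophil libraries, as log2(CPM + 0.05), with 77 hepatocyte, 20 neutrophil identity, 11 platelet and 77 mitochondrial ribosome genes coloured and equality dashed. Of the hepatocyte genes 75 were called above the line and 1 below, neutrophil identity genes lie below it at high level, and platelet genes lie at the bottom right.

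Hepatocyte genes were far higher in liver. Across 7 lists of secreted proteins, metabolic enzymes, zonation genes, transporters, transcription factors and complement or coagulation proteins, 77 of 108 members were tested. Of these, 75 were higher in liver, 1 was lower and 1 was not called, with a median log2 fold change of 8.33. Together they held 4.60% and 6.05% of the counts of the liver libraries and 0.0593%, 0.0628% and 0.0555% of those of the blood libraries. Libraries labelled as liver neutrophils thus held the defining genes of hepatocytes beside those of neutrophils.

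Secreted proteins gave 23 of 23 tested members higher, with a median of 8.60. Alb (chr5:90460897-90476603 on mm10, as are all positions of whole genes), which encodes serum albumin, was at 4861 and 5578 CPM in liver and 12.03, 16.3 and 9.08 CPM in blood, which is 8.70 (SE 0.53, adjusted p = 1.26e-06) on the log2 scale. Both liver libraries stood far above all 3 blood libraries. The same separation held for Apoa1, the main protein of high-density lipoprotein, at 465 and 567 against 1.43, 1.80 and 0.661 CPM, with a log2 value of 8.60 (SE 0.52, adjusted p = 1.1e-06) for liver over blood. Fga, the fibrinogen alpha chain, was at 91.1 and 114 CPM in liver and at 0.0550, 0.0829 and 0.124 CPM in blood, or 10.22 (SE 0.88, adjusted p = 9.96e-06) as log2 liver over blood. The blood level of Fga rests on a handful of counts, so its fold is less certain than that of Alb.

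Metabolic enzymes were higher in 25 of 25 tested members, with a median of 8.44. Cyp2e1, a cytochrome P450 of ethanol and xenobiotic oxidation, was at 839 and 988 CPM in liver and 2.504, 2.60 and 1.98 CPM in blood (log2 difference 8.59, SE 0.23, adjusted p = 1.14e-07). Cps1, which starts the urea cycle, was at 352 and 667 against 1.02, 1.49 and 0.867 CPM, a log2 difference of 8.80 (SE 0.38, adjusted p = 4.53e-07). Replicate 2 of liver held more Cps1 than replicate 1, a gap far smaller than that to blood. Arg1, the last enzyme of the urea cycle and also a suppressive product of some myeloid cells, was at 825 and 1242 CPM in liver and 2.92, 4.20 and 2.44 CPM in blood, which is 8.33 (SE 0.33, adjusted p = 1.59e-07) on the log2 scale. Its blood libraries held 0.308% of the liver mean, against 0.221% for Cps1 and 0.239% for Alb. Which cells the Arg1 transcripts came from was not tested.

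Genes of both ends of the liver lobule were present. All 9 tested genes of the periportal list were higher (median 7.85), among them Ass1, a urea cycle enzyme, with a log2 value of 7.30 (SE 0.32, adjusted p = 2.25e-07) for liver over blood. All 7 of the pericentral list were higher (median 5.63). Glul, glutamine synthetase of the cells around the central vein, was at 2612 and 2896 CPM in liver and 281, 267 and 342 CPM in blood, or 3.21 (SE 0.17, adjusted p = 4.51e-07) as log2 liver over blood. Oat, ornithine aminotransferase, was at 793 and 951 against 92.1, 80.7 and 73.1 CPM (log2 difference 3.41, SE 0.16, adjusted p = 3.03e-07). Glul and Oat are also used outside the liver, and their blood levels were 10.8% and 9.40% of the liver level.

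All 4 tested transporters were higher (median 7.93), Slc10a1, the bile acid uptake carrier, by a log2 difference of 8.06 (SE 0.59, adjusted p = 7.99e-06). All 6 tested transcription factors were higher too (median 8.73). Hnf4a, the nuclear receptor that maintains hepatocyte identity, was at 322 and 425 CPM in liver and 1.21, 1.71 and 0.578 CPM in blood, a log2 value of 8.28 (SE 0.38, adjusted p = 6.14e-07) for liver over blood. The bile acid receptor Nr1h4 was at 66.2 and 108 CPM in liver and 0.110, 0.193 and 0 CPM in blood. Prox1 was at 38.2 and 54.0 against 0.0826, 0.0276 and 0.0826 CPM. For each of these 3 regulators the liver and blood libraries did not overlap.

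Complement and coagulation proteins gave 10 higher, 1 lower and 1 not called of 12, with a median of 7.71, or 6.39 with C6, at 0 in blood, set at its bound. C9, the last component of the membrane attack complex, had a log2 difference of 9.02 (SE 0.51, adjusted p = 7.5e-07), and C6, with no counts in blood, was at least 31.5-fold higher in liver. The lower one was F5, coagulation factor V, which platelets carry, at 36.4 and 32.2 CPM in liver and 93.9, 121 and 199 CPM in blood, which is -2.01 (SE 0.29, adjusted p = 0.000233) on the log2 scale.

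Some of the steepest folds were of genes in no parenchyma list. Agxt2, a mitochondrial aminotransferase of liver and kidney, had a log2 value of 9.73 (SE 0.52, adjusted p = 1.43e-06) for liver over blood. Fmo2, a flavin monooxygenase, and Igsf5, a junction protein, had no counts in blood and were at least 502-fold and 387-fold higher, taking 3 counts over the 3 blood libraries as the floor.

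Hepatocyte genes were also read in blood, at a narrow share of their liver level. The mean blood level had a median of 0.302% of the liver level (interquartile range 0.229% to 0.571%), and 59 of the 77 genes lay between 0.1% and 1%. Of 42 genes over 100 CPM in liver, 35 lay in that band, with a median of 0.279%. The median share was 0.274%, 0.404% and 0.217% in blood replicates 1, 2 and 3. Above 1% lay 15 genes, among them Glul, Oat and Cyp27a1, a sterol hydroxylase that macrophages share, at 21.9%. Under 1 CPM in every library lay 40 of the 77 in untreated blood and 61 in the 2 blood libraries of treated mice, where 16 had no counts. The lists were not all lower in treated than in untreated blood, a comparison given without a test. Secreted proteins summed to 26.7, 36.7 and 23.8 CPM in untreated blood and to 5.55 ± 2.63 CPM (SD, n = 2) in treated blood, and complement and coagulation proteins to 150.4, 177 and 232 CPM and 396 ± 18.6 CPM. All 77 genes summed to 658, 713 and 796 CPM in untreated blood and to 659.9 and 623 CPM in treated blood. Where the transcripts in untreated blood came from, including carry-over between libraries, was not tested.

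Other liver cells left an uneven trace. Of 11 tested genes of the sinusoidal endothelium list, 2 were higher, 1 lower and 8 not called, with a median of 0.17. Stab2, its scavenger receptor, was at 11.3 and 19.2 CPM in liver and 0, 0.0829 and 0.124 CPM in blood (log2 difference 7.85, SE 0.63, adjusted p = 6.88e-06). Lyve1, a hyaluronan receptor of the same cells, was lower in liver, at 0.528 and 0.230 against 0.550, 0.801 and 1.86 CPM, with a log2 difference of -1.45 (SE 0.57, adjusted p = 0.0469). Stab2 did not overlap between the groups in one direction and Lyve1 in the other, but Lyve1 was not called without liver replicate 2 (-1.11, adjusted p = 0.208) or blood replicate 3 (-0.83, adjusted p = 0.120). The list median was -0.30 and 0.40 without liver replicates 1 and 2, and 0.70 and 0.34 without blood replicates 1 and 3. With upper-quartile scaling it was -0.03. On the identity scale it was 2.40, and 6 of the 11 genes were higher there, beside 72.5% of all tested genes. Krt19, the keratin of bile duct cells, was at 0.252 and 0.0230 CPM in liver and had no counts in blood, and missed the threshold (adjusted p = 0.0575), which it passed without liver replicate 2 (adjusted p = 0.0470). Of the 5 tested genes of the bile duct list 3 were lower in liver, among them Muc1, a mucin of epithelial surfaces, at 0.390 and 0.437 against 1.02, 2.27 and 2.52 CPM (log2 fold change -2.21, SE 0.48, adjusted p = 0.00272), and the list median of -1.89 was 0.04 on the identity scale, where 2 were higher. Stellate cell and fibroblast genes gave 2 higher and 3 lower of 8 (median -0.36, identity-scaled 1.70), beside 35.6% and 28.7% of all tested genes. In that list Dcn, the collagen-binding proteoglycan of fibroblasts, was not called, at 0.184 and 0.253 against 0.248, 0.276 and 0.248 CPM. No gene of that list was called higher by edgeR without liver replicate 1 (median -0.75), and 1 was without liver replicate 2, blood replicate 1 (median -0.57) or blood replicate 3, while without blood replicate 2 the median was -0.15.

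Kupffer cells are the resident macrophages of the sinusoid. Of 14 tested genes of the Kupffer cell and macrophage list, 6 were higher, 2 lower and 6 not called. Of all tested genes, 35.6% were higher and 28.7% lower. The list median was 1.98, or 1.70 with genes at 0 in blood set at their bound. On the identity scale 11 of the 14 were higher (median 3.94), where 72.5% of all tested genes were (median 2.14). With a filter of 5 CPM the TMM median of the list was 0.74, with 3 higher. Clec4f, the lectin that marks these cells in mice, was at 0.275 and 0.414 CPM in liver and had no counts in blood, at least 11.1-fold higher. Timd4, a phosphatidylserine receptor, was at 0.597 and 0.506 CPM and also without counts in blood, at least 17.8-fold higher. Both were low in liver even so. C1qa, a chain of complement C1q, was at 6.08 and 5.75 against 1.46, 1.44 and 0.619 CPM, a log2 value of 2.31 (SE 0.44, adjusted p = 0.00121) for liver over blood. Adgre1, the F4/80 antigen, and the iron exporter Slc40a1 were lower in liver, with log2 fold changes of -1.44 (adjusted p = 0.00340) and -1.80 (adjusted p = 5.22e-05).

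Genes that hepatocytes and leukocytes both use did not move as a block. Of 14 tested acute phase proteins, 9 were higher, 2 lower and 3 not called, with a median of 4.64 (identity-scaled 6.74). Hamp, the iron hormone hepcidin, was at 138 and 239.7 CPM in liver and 0.330, 0.525 and 0.124 CPM in blood, which is 9.08 (SE 0.50, adjusted p = 6.54e-07) on the log2 scale. Hp, haptoglobin, was the reverse, at 1364 and 1208 against 4519.5, 4579.7 and 7105 CPM, or -2.07 (SE 0.24, adjusted p = 5.89e-05) as log2 liver over blood. Lcn2, neutrophil gelatinase-associated lipocalin, was at 668 and 1047 CPM in liver and 2059, 2910.1 and 8427 CPM in blood (log2 difference -2.38, SE 0.56, adjusted p = 0.00415). Neutrophils store the products of Hp and Lcn2 in granules, and on the identity scale the differences of these genes were 0.05 and -0.11 and were not called. C3, made by both kinds of cell, overlapped between the groups, at 394 and 458 against 455, 495 and 644 CPM. Saa1, a serum amyloid with near-identical copies, had a log2 difference of 5.38 (SE 0.48, adjusted p = 1.19e-05), which read sharing with Saa2 makes uncertain.

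Most genes of the mitochondrial lists were higher in liver. Of 77 mitochondrial ribosomal proteins, which translate the mitochondrial genome, 71 were higher and 1 lower, with a median of 2.36 (identity-scaled 4.36). Mrpl38 was at 65.6 and 96.0 CPM in liver and 2.26, 2.27 and 2.11 CPM in blood, a log2 value of 5.19 (SE 0.22, adjusted p = 1.81e-07) for liver over blood. The groups did not overlap, and all 3 blood values were close together. Mrps5, of the small subunit, had a log2 difference of 5.24 (SE 0.31, adjusted p = 9.49e-07). Of 76 nuclear genes of oxidative phosphorylation, 64 were higher and 3 lower (median 1.46, identity-scaled 3.54), with a log2 value of 4.50 (SE 0.23, adjusted p = 4.59e-07) for liver over blood for Atp5g1, a ring subunit of ATP synthase. Cytosolic ribosomal proteins, which have many pseudogene copies and are uncertain gene by gene, gave 39 higher and 5 lower of 80, with a median of 0.47. The count higher was 18 without liver replicate 1 (median 0.27), 26 without liver replicate 2, 24 with upper-quartile scaling (median 0.24) and 76 on the identity scale (median 2.497), and the count lower was 3 without liver replicate 2 or blood replicate 2. Rpl4 was at 611 and 575 against 245, 255 and 249 CPM, higher in liver, and Rps9 at 893 and 714 against 1805, 1789 and 1893 CPM, lower.

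Chaperones were higher in 12 and lower in 2 of 19 tested members (median 1.57, identity-scaled 3.56), with 1 lower without liver replicate 2, blood replicate 1 or blood replicate 2. The higher ones included those of the mitochondrial matrix, with Trap1 at 121 and 175 CPM in liver and 4.07, 4.42 and 3.18 CPM in blood, which is 5.24 (SE 0.22, adjusted p = 1.89e-07) on the log2 scale, and Hspd1 with a log2 difference of 5.72 (SE 0.19, adjusted p = 1.15e-07), uncertain because of its pseudogenes. Antioxidant enzymes were higher in 11 and lower in 3 of 18 (median 1.66, identity-scaled 3.86), with 6 lower under upper-quartile scaling and 5 under DESeq2. Cat, the peroxisomal catalase, was at 1991 and 3139 CPM in liver and 25.3, 38.1 and 21.6 CPM in blood, or 6.50 (SE 0.32, adjusted p = 3.68e-07) as log2 liver over blood. Sod1, cytosolic superoxide dismutase, followed at 618 and 883 against 28.9, 31.6 and 19.2 CPM (log2 fold change 4.82, SE 0.26, adjusted p = 5.55e-07). The 3 lower ones by TMM and edgeR were Prdx5, Txn1 and Hmox1, Prdx5 by a log2 value of -1.56 (SE 0.28, adjusted p = 0.000874) for liver over blood.

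Glycolysis, on which neutrophils rely for energy, went the other way, with 11 lower and 2 higher of 16 (median -1.17, identity-scaled 0.96). Pkm, the pyruvate kinase of leukocytes and muscle, was at 724 and 683 CPM in liver and 2325, 2455 and 3983 CPM in blood (log2 difference -2.05, SE 0.25, adjusted p = 8.5e-05). Tpi1, triosephosphate isomerase, was higher in liver, at 565 and 754 against 99.2, 105 and 149 CPM (log2 fold change 2.48, SE 0.21, adjusted p = 1.03e-05), as was the liver-type phosphofructokinase Pfkl (log2 fold change 1.23, SE 0.24, adjusted p = 0.00155).

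**Figure D2:**
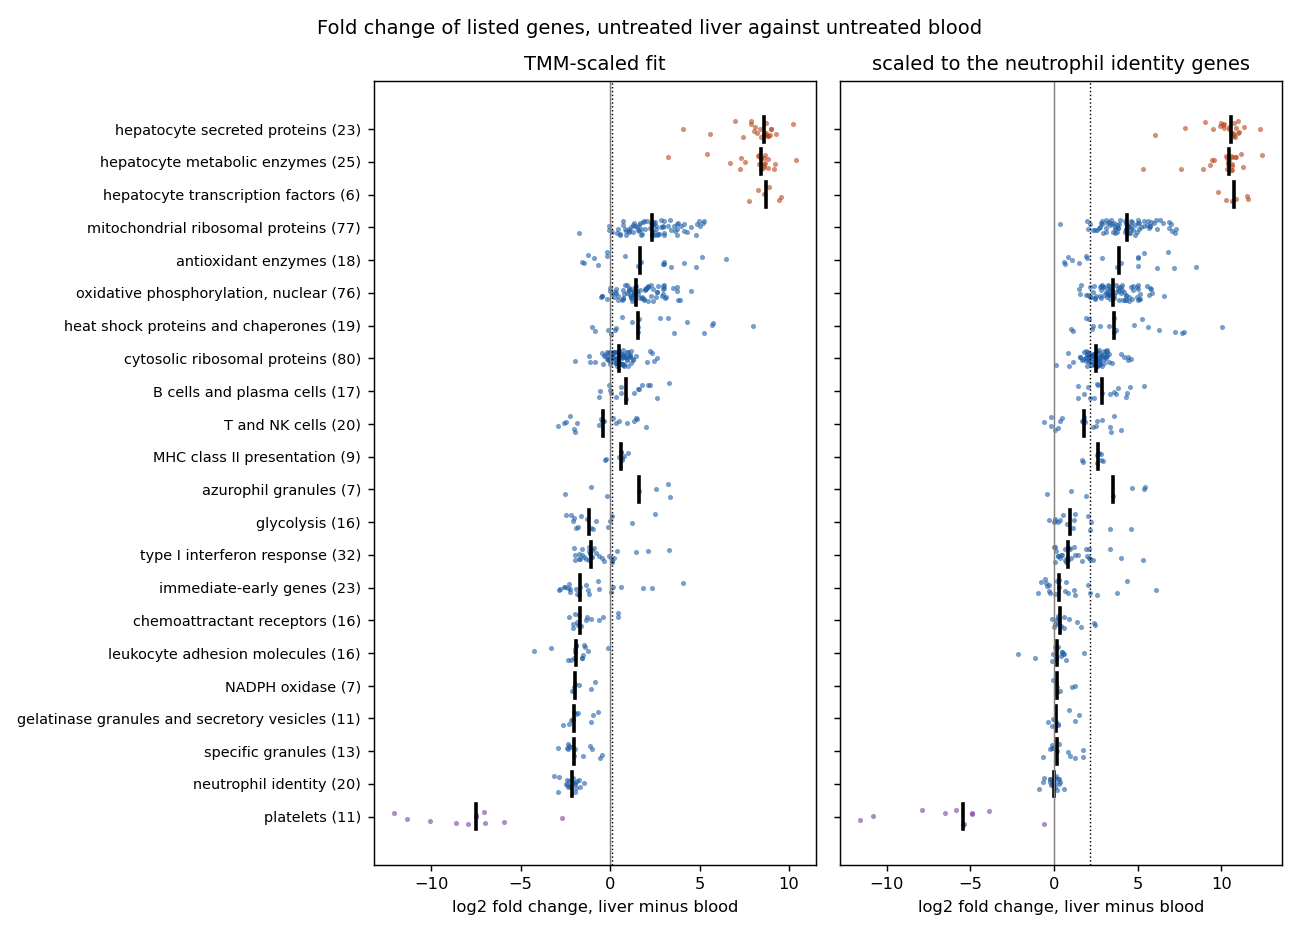
Log2 fold change of liver over blood, untreated, for each tested gene (points) of each list, with the list median (bar) and the median of all tested genes (dotted line), after TMM scaling in one panel and after scaling to the neutrophil identity genes in the other. Most neutrophil lists, other than azurophil granules, sit near -2 in the first panel and near 0 in the second, while hepatocyte lists sit far to the right and platelet genes far to the left in both.

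Neutrophil genes other than those of azurophil granules were mostly lower in liver after TMM scaling, and mostly not after identity scaling. All 20 neutrophil identity genes passed as lower, with a median log2 fold change of -2.13, against 0.10 for all genes. S100a8 (chr3:90668978-90670036) was at 6522 and 7971 CPM in liver and 24053, 32182 and 64647 CPM in blood, a log2 difference of -2.48 (SE 0.41, adjusted p = 0.000495). Every blood library exceeded both liver libraries, and blood replicate 3 was well above the other two. S100a9, its partner in calprotectin, was at 16352 and 17106 against 56316, 70994 and 142676 CPM (log2 fold change -2.43, SE 0.39, adjusted p = 0.000444). Cxcr2, the receptor for CXCL1 and CXCL2, was at 1463 and 1251 CPM in liver and 5109, 4909 and 5972 CPM in blood, which is -1.97 (SE 0.18, adjusted p = 1.58e-05) on the log2 scale. Its blood libraries lay close together, unlike those of S100a8. Csf3r, the receptor for the neutrophil growth factor G-CSF, had a log2 value of -1.72 (SE 0.23, adjusted p = 0.000127) for liver over blood, and Ly6g, the surface antigen by which mouse neutrophils are recognised, one of -2.85 (SE 0.52, adjusted p = 0.000999).

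On the identity scale these genes have a median of 0.01 by construction, so only departures within the list can be read. There Retnlg, a resistin-like secreted protein, differed by -0.89 (log2, lower in liver, adjusted p = 0.0128), from 1834 and 2179.6 CPM in liver and 10087, 11509.5 and 30849 CPM in blood on the TMM scale. Mmp8, the neutrophil collagenase, at 355 and 418 against 1590.3, 1937 and 5257 CPM, differed by -0.67 on the identity scale (adjusted p = 0.0490). Blood replicate 3 was the highest library for both.

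The pattern reached beyond the genes that set that scale. Across identity, specific granule, gelatinase granule, NADPH oxidase, chemoattractant receptor, adhesion, Toll-like receptor and Fc receptor lists, 88 genes were tested, of which 73 were lower, 1 higher and 14 not called, with a median of -1.83 (interquartile range -2.09 to -1.38). Without the identity list, 53 of 68 were lower, with a median of -1.74. On the identity scale 2 of these 68 were lower, 17 higher and 49 not called, with a median of 0.33. All 88 genes together held 7.33% and 6.32% of the counts of the liver libraries and 16.3%, 18.5% and 26.0% of those of the blood libraries. The 88 left out azurophil granule genes (4 higher, 2 lower of 7) and regulators of granulocyte formation (2 higher, 6 lower of 10). The 1 higher gene of the 88 was Fcgrt, the neonatal Fc receptor, which hepatocytes and macrophages also make (log2 fold change 1.61, SE 0.46, adjusted p = 0.0122). Fcgrt was not called without liver replicate 2 (1.29, adjusted p = 0.106).

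Granule genes are made in sequence as neutrophils mature. Specific granule genes were lower in 10 of 13 (median -2.03, identity-scaled 0.19). The 3 not called were Camp, Ltf and Chil3, products of myelocytes, the marrow precursors at mid maturation. Camp, the cathelicidin, was at 394 and 705 CPM in liver and 338, 527 and 1585 CPM in blood, with overlapping groups and a log2 difference of -0.57 (SE 0.56, adjusted p = 0.390). Ltf, lactoferrin, was at 534 and 925 against 666, 967 and 2832 CPM, also overlapping (log2 fold change -1.03, SE 0.54, adjusted p = 0.121). Blood replicate 3 was the highest for both genes by a wide margin. Without it the difference of Camp was 0.34 (adjusted p = 0.306), and without blood replicate 1 Ltf passed as lower (-1.38, adjusted p = 0.0249). On the identity scale both were higher in liver, Camp by 1.72 (adjusted p = 0.00264) and Ltf by 1.25 (adjusted p = 0.0102). Lyz2, the lysozyme of neutrophils and macrophages, was lower by TMM (log2 fold change -1.15, SE 0.29, adjusted p = 0.00603) and higher on the identity scale (0.94, adjusted p = 0.0147).

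Azurophil granule genes, which promyelocytes make, gave 4 higher, 2 lower and 1 not called of 7, with a median of 1.60. Of all tested genes, 35.6% were higher and 28.7% lower. On the identity scale 6 of the 7 were higher (median 3.54), beside 72.5% of all tested genes, and Prss57 was not called (-0.44). Elane, neutrophil elastase, was at 4.27 and 5.45 CPM in liver and 0.523, 0.304 and 0.661 CPM in blood, or 3.32 (SE 0.38, adjusted p = 4.99e-05) as log2 liver over blood. Mpo, myeloperoxidase, was at 3.07 and 4.23 against 0.688, 0.221 and 0.991 CPM (log2 difference 2.58, SE 0.48, adjusted p = 0.00113). Both were low everywhere, and the groups did not overlap. Ms4a3, a promyelocyte membrane protein, also passed as higher (log2 fold change 3.25, SE 0.52, adjusted p = 0.000448), while Prss57, another serine protease of these granules, was lower by TMM (log2 fold change -2.55, SE 0.27, adjusted p = 3.24e-05) and Prtn3, proteinase 3, was not called (log2 fold change -0.17, SE 0.25, adjusted p = 0.578).

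Gelatinase granule and secretory vesicle genes were lower in 9 of 11 (median -1.996, identity-scaled 0.09), among them Mmp9, gelatinase B (log2 fold change -2.18, SE 0.26, adjusted p = 7.3e-05). All 7 genes of the NADPH oxidase, which makes superoxide in phagosomes, were lower (median -1.94, identity-scaled 0.18). Cybb, its catalytic subunit, was at 406 and 282 CPM in liver and 599, 632 and 945 CPM in blood, a log2 value of -1.08 (SE 0.24, adjusted p = 0.00343) for liver over blood. Ncf1, a cytosolic organiser, was lower by a greater margin (log2 fold change -1.996, SE 0.32, adjusted p = 0.000419). On the identity scale Cybb and the proton channel Hvcn1 were higher in liver (1.04, adjusted p = 0.00129, and 1.25, adjusted p = 0.00059), and Ncf1 was not called (0.18).

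**Figure D3:**
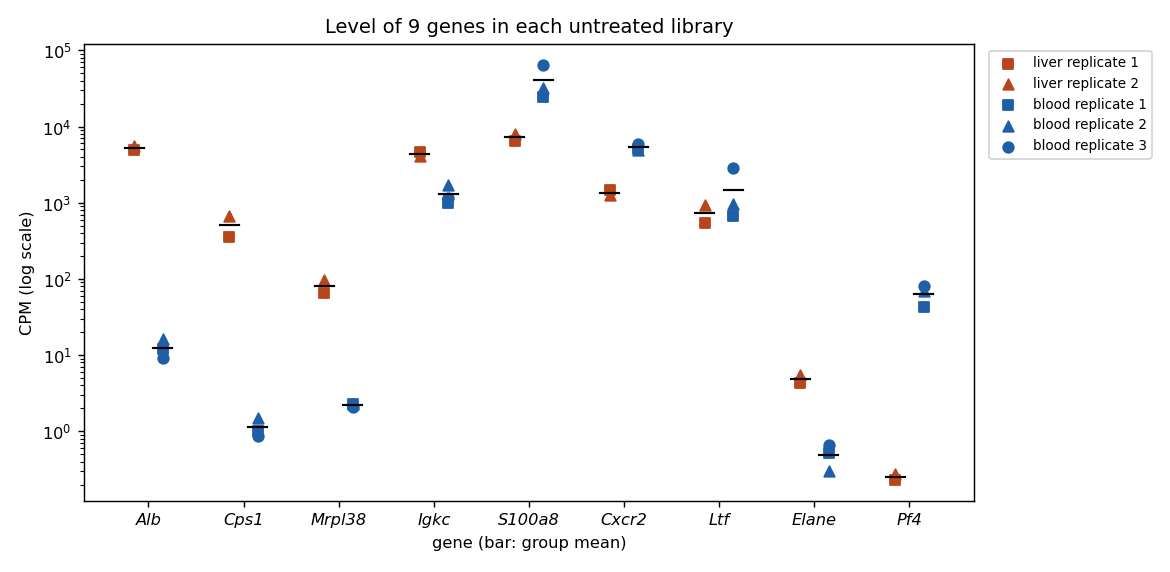
CPM on a log axis of 9 genes in each of the 5 untreated libraries, with each point a library and each bar the mean of liver or blood. In untreated mice Alb, Cps1, Mrpl38, Igkc and Elane are higher in liver, S100a8, Cxcr2 and Pf4 are lower, and Ltf overlaps.

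Regulators of granulocyte formation were mixed by TMM, with 6 lower and 2 higher of 10 (median -1.14), and on the identity scale 5 were higher (median 0.91). Spi1, which encodes PU.1, was at 379 and 296 CPM in liver and 1333, 1328 and 1678 CPM in blood, which is -2.10 (SE 0.19, adjusted p = 1.37e-05) on the log2 scale. Cebpe, the factor of late granulocyte maturation, was lower by TMM (log2 fold change -0.95, SE 0.15, adjusted p = 0.000404) and higher on the identity scale (1.11, adjusted p = 0.00287). Cebpa was the reverse of Spi1, at 217 and 294 CPM in liver and 52.2, 43.3 and 50.3 CPM in blood (log2 fold change 2.40, SE 0.16, adjusted p = 2.43e-06), and hepatocytes also express it. Gfi1, a repressor that promyelocytes need, was higher (log2 fold change 2.40, SE 0.46, adjusted p = 0.00140).

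Chemoattractant receptors were lower in 12 of 16 (median -1.69, identity-scaled 0.36). Cxcr4, which holds neutrophils in marrow and marks aged ones, was at 409 and 227 CPM in liver and 1275, 1425 and 307 CPM in blood, or -1.66 (SE 0.56, adjusted p = 0.0253) as log2 liver over blood. Blood replicate 3 lay between the liver libraries, so the groups overlapped although the gene passed. The call was lost without liver replicate 2 (-1.42, adjusted p = 0.146), blood replicate 1 (-1.45, adjusted p = 0.0533) or blood replicate 2 (-1.32, adjusted p = 0.0705). Ccr1, a receptor for CCL3 and CCL5, was lower without overlap (log2 fold change -2.07, SE 0.16, adjusted p = 4.72e-06), and Ccr2, the receptor of monocytes, was not called (log2 fold change -0.61, SE 0.44, adjusted p = 0.243) unless liver replicate 1 was left out (-1.76, adjusted p = 0.00753). Adhesion genes were lower in 15 of 16 (median -1.90, identity-scaled 0.17). The integrin subunit gene Itgam was at 685 and 583 against 1935, 2139.8 and 2957 CPM (log2 fold change -1.89, SE 0.22, adjusted p = 5.93e-05). Itga6 and Pecam1, which platelets also carry, stood out, and remained lower on the identity scale, by -2.17 (adjusted p = 0.000192) and -1.17 (adjusted p = 0.00298).

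Sensing and signalling genes were mostly lower after TMM scaling. Toll-like receptors and adaptors were lower in 9 of 13 (median -1.75, identity-scaled 0.34), and cytokine receptors and their SOCS inhibitors were lower in 18 and higher in 2 of 23 (median -1.46, identity-scaled 0.59). Socs3, the inhibitor of G-CSF and IL-6 signals, was at 127 and 133 CPM in liver and 726, 735 and 885 CPM in blood (log2 difference -2.59, SE 0.17, adjusted p = 1.68e-06). The 2 higher ones were Cish, an inhibitor of STAT5 signals, at 21.0 and 60.7 against 2.23, 1.55 and 1.86 CPM (log2 fold change 4.44, SE 0.41, adjusted p = 1.44e-05), and the interleukin-1 receptor gene Il1r1 (log2 fold change 3.67, SE 0.81, adjusted p = 0.00302). NF-kB response genes were lower in 11 and higher in 2 of 17 (median -0.85, identity-scaled 1.18). Immediate-early genes, the first to respond to a stimulus, were lower in 14 and higher in 3 of 23 (median -1.67, identity-scaled 0.30), with log2 fold changes of -2.34 (SE 0.19, adjusted p = 7.07e-06) for Junb, -2.78 (SE 0.22, adjusted p = 5.26e-06) for Klf2 and 1.84 (SE 0.45, adjusted p = 0.00536) for Egr1, a higher one. Egr1 was not called without liver replicate 2 (adjusted p = 0.0602).

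Cytokine genes gave 8 higher and 8 lower of 26 (median -0.19, identity-scaled 1.77), where 35.6% of all tested genes were higher and 28.7% lower. Il1b, the main inflammatory interleukin of neutrophils, was at 1253 and 889 CPM in liver and 4911, 5476 and 2675 CPM in blood, a log2 difference of -2.02 (SE 0.31, adjusted p = 0.000342). Osm, oncostatin M, an IL-6 family cytokine that acts on hepatocytes, was at 83.4 and 93.4 against 595, 777 and 1399 CPM (log2 fold change -3.39, SE 0.36, adjusted p = 3.19e-05). Osm stayed lower on the identity scale (-1.21, adjusted p = 0.000371), whereas Il1b was not called there (-0.06). The higher genes included Cxcl9, a chemokine for T cells (log2 fold change 4.21, SE 0.62, adjusted p = 0.000253), Cxcl1, a ligand of CXCR2 (log2 fold change 2.67, SE 0.77, adjusted p = 0.0128), and Il18 (log2 fold change 1.51, SE 0.20, adjusted p = 0.00013). Cxcl1 was not called without liver replicate 1 (adjusted p = 0.0534) or 2 (adjusted p = 0.0668), and the list median was -0.74 without liver replicate 1, where 4 were higher, -0.42 without blood replicate 3, -0.31 without liver replicate 2 and 0.01 without blood replicate 1.

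Interferon responses did not go one way. Type I interferon response genes were lower in 14 and higher in 3 of 32 (median -1.06, identity-scaled 0.84), with log2 fold changes of -1.95 (SE 0.19, adjusted p = 2.26e-05) for Oas3, -1.99 (SE 0.16, adjusted p = 7.67e-06) for Trim30a and 3.26 (SE 0.36, adjusted p = 4.08e-05) for Mx2, a higher one. Without blood replicate 1 the median was -0.42, without blood replicate 3 there were 22 lower, and without liver replicate 2 there were 10 lower and 1 higher. GTPases induced by interferon gamma gave 4 higher and 3 lower of 13 (median 0.65, identity-scaled 2.62), beside 35.6% and 28.7% of all tested genes. Iigp1 was at 187 and 356 CPM in liver and 1.24, 2.02 and 1.28 CPM in blood, which is 7.48 (SE 0.40, adjusted p = 5.55e-07) on the log2 scale, and Gbp6 followed (log2 fold change 5.62, SE 0.51, adjusted p = 1.42e-05), while Gbp2 was lower (log2 fold change -1.54, SE 0.40, adjusted p = 0.00728). The median of the GTPases was 0.30 and 0.41 without liver replicates 1 and 2 and 0.39 without blood replicate 3, and 7 were higher without blood replicate 1. Antigen presentation by MHC class I was lower in 8 and higher in 1 of 12 (median -1.15, identity-scaled 0.80), with log2 fold changes of -1.77 (SE 0.23, adjusted p = 0.000115) for H2-D1 and 0.88 (SE 0.31, adjusted p = 0.0303) for the immunoproteasome subunit gene Psmb10, the higher one, which lost its call without either liver library (0.86, adjusted p = 0.105, without replicate 1 and 0.64, adjusted p = 0.220, without replicate 2) and without blood replicate 2 (0.92, adjusted p = 0.0553). Class I genes of the H2 family resemble each other and are uncertain one by one. Of 9 MHC class II genes, edgeR called 0 (unadjusted p under 0.05 in 0), and DESeq2 called 0. On the identity scale, where 72.5% of all tested genes were higher, so were all 9 class II genes (median 2.61). Their TMM median was 0.61, or -0.30 without liver replicate 1, 1.04 without liver replicate 2, where 1 passed as higher, and 0.33 without blood replicate 3. H2-Aa, a class II chain, was at 161 and 66.5 CPM in liver and 80.7, 101 and 33.0 CPM in blood, and its groups overlapped, with a difference of 0.67 that was -0.24 without liver replicate 1.

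Immunoregulatory molecules were lower in 6 and higher in 2 of 14, beside 28.7% and 35.6% of all tested genes. The list median was -0.87, or -1.32 without blood replicate 3 (identity-scaled 1.03). Its higher genes were Arg1, given above, and Lgals9, galectin-9, at 777 and 1161 against 256, 224 and 323 CPM (log2 fold change 1.86, SE 0.21, adjusted p = 4.87e-05). Cd274, the ligand of PD-1, was at 27.0 and 23.0 CPM in liver and 67.3, 50.4 and 15.4 CPM in blood, with overlapping groups (log2 fold change -0.83, SE 0.48, adjusted p = 0.154), and passed as lower without blood replicate 3 (-1.23, adjusted p = 0.000288). Vsir, another inhibitory ligand, was lower (log2 fold change -2.04, SE 0.24, adjusted p = 6.54e-05). Il10 was not analysed here. Survival and death genes were lower in 9 of 18 (median -0.71, identity-scaled 1.26). Cell cycle genes were higher in 17 and lower in 1 of 24 (median 1.92, identity-scaled 3.97), or higher in 10 without liver replicate 2 (median 1.33), at low level, with Top2a, a topoisomerase of dividing cells, at 1.996 and 2.92 against 0.440, 0.304 and 0.454 CPM (log2 fold change 2.63, SE 0.32, adjusted p = 8.09e-05), and Tyms, thymidylate synthase, with a log2 value of 4.55 (SE 0.50, adjusted p = 4.28e-05) for liver over blood. Kif23, of the dividing spindle, was the lower one (log2 fold change -1.68, SE 0.46, adjusted p = 0.0101), and was not called without liver replicate 2 (-1.41, adjusted p = 0.0758).

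Platelet genes were nearly missing from the liver libraries. All 11 tested were lower, with a median log2 fold change of -7.48, and the liver level had a median of 0.546% of the blood level (range 0 to 15.4%). Pf4 (chr5:90772435-90773384) was at 0.229 and 0.276 CPM in liver and 42.2, 70.4 and 80.4 CPM in blood, or -7.97 (SE 0.38, adjusted p = 3.21e-07) as log2 liver over blood. Ppbp, which encodes another platelet chemokine, was at 0.0688 and 0.276 against 104, 191 and 264 CPM (log2 fold change -10.05, SE 0.64, adjusted p = 1.66e-06). Gp6, the collagen receptor, had no counts in liver and 8.92, 16.9 and 15.9 CPM in blood, at least 404-fold lower. All 11 were lower on the identity scale too (median -5.42). They made up 11 of the 132 genes that were lower there, and 114 of the 132 were in no list. Among those were Alox12, the platelet lipoxygenase, at 0.115 and 0.0230 against 32.0, 46.7 and 51.8 CPM, and Nrgn, a calmodulin-binding protein also found in platelets, at 0.275 and 0.345 against 104, 159.7 and 126 CPM.

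Other blood cells differed gene by gene. Erythroid genes gave 2 higher and 4 lower of 11 (identity-scaled, 2 higher and 0 lower), beside 35.6% and 28.7% of all tested genes by TMM. Rhag and Epb42, of the red cell membrane, had no counts in the 5 untreated libraries. The 4 lower ones were globins, but edgeR called no gene of the list lower without liver replicate 1 or 2, and 1 without blood replicate 2. Hbb-bs, a beta globin, was at 6.72 and 4.51 CPM in liver and 38.3, 84.3 and 9.99 CPM in blood (log2 fold change -2.98, SE 1.06, adjusted p = 0.0327, uncertain because globin copies share reads), and was not called without liver replicate 1 (adjusted p = 0.109), liver replicate 2 (adjusted p = 0.162) or blood replicate 2 (adjusted p = 0.0920). Alas2, the first enzyme of haem synthesis in red cell precursors, was higher, at 94.6 and 113 against 1.68, 2.21 and 0.248 CPM (log2 fold change 6.17, SE 0.99, adjusted p = 0.00043), and so was the erythroid factor Klf1, at 2.501 and 3.80 CPM in liver with no counts in blood, at least 102-fold. B cell and plasma cell genes were higher in 7 of 17, where 35.6% of all tested genes were (median 0.86, identity-scaled 2.88). The count was 4 without either liver library, with upper-quartile scaling or in the 5 untreated libraries alone, and the median was 0.48 without liver replicate 1 and 1.61 without blood replicate 2. The higher ones included Igkc, the kappa light chain, at 4583 and 4098 CPM in liver and 986, 1713 and 1165 CPM in blood (log2 fold change 1.75, SE 0.24, adjusted p = 0.000142). Ighm, the IgM heavy chain, was at 1270.0 and 1837 against 351, 242 and 174 CPM (log2 fold change 2.60, SE 0.29, adjusted p = 4.2e-05). Both are constant-region genes whose counts can mix related segments.

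T and NK cell genes gave 3 higher and 3 lower of 20 (median -0.42, identity-scaled 1.77), beside 35.6% and 28.7% of all tested genes. The higher ones included Gzmb, a granzyme (log2 fold change 2.02, SE 0.40, adjusted p = 0.00151), and Ncr1, an NK receptor (log2 fold change 1.42, SE 0.37, adjusted p = 0.00789), and the lower ones Cd3d, of the T cell receptor complex (log2 fold change -2.05, SE 0.26, adjusted p = 9.06e-05). Ncr1 was not called without liver replicate 1 (0.70, adjusted p = 0.180), and the list median was -1.16 without that library, with 1 higher, and 0.44 without blood replicate 3. Without liver replicate 2 the list gave 6 higher and 1 lower (median -0.17), and without blood replicate 1 it gave 7 lower. Monocyte and dendritic cell genes gave 1 higher and 1 lower of 12 (median -0.07, identity-scaled 1.83), the lower being the receptor gene Csf1r (log2 fold change -1.24, SE 0.26, adjusted p = 0.00248), and the median was -1.14 without liver replicate 1, where 4 were lower, -0.48 without blood replicate 3, 0.30 without liver replicate 2, 0.16 without blood replicate 1 and 0.021 without blood replicate 2. Eosinophil, basophil and mast cell genes gave 1 higher and 3 lower of 9 (median -2.41, identity-scaled 0.05), with log2 fold changes of 5.77 (SE 0.63, adjusted p = 4.13e-05) for Prg2, the major basic protein of eosinophil granules, and -1.52 (SE 0.39, adjusted p = 0.00668) for Siglecf, an eosinophil lectin. The count lower was 6 without blood replicate 1 (median -3.23) and 1 without liver replicate 2 (median -1.74), and with a filter of 5 CPM the median turned to 1.99. The summed level of T and NK genes was 209 and 114 CPM in liver and 225, 249 and 387 CPM in blood, and that of B and plasma cell genes was 8020.1 and 7673 CPM in liver and 1911, 2997 and 2024 CPM in blood. The part of these cells in the liver and blood difference was not tested.

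The liver libraries also differed from each other in an ordered way. Over all tested genes the log2 ratio of replicate 1 to replicate 2 had a median of -0.13 (interquartile range -0.43 to 0.26). With counts in both libraries, 9764 genes were higher in replicate 2 and 6338 in replicate 1. Of the 77 hepatocyte genes, 72 were higher in replicate 2, with a median of -0.48. Metabolic enzymes had a median of -0.64, secreted proteins -0.41, mitochondrial ribosomal proteins -0.40 (75 of 77 higher in replicate 2) and oxidative phosphorylation genes -0.46 (74 of 76). Neutrophil identity genes were close to even, at -0.09. Genes of monocytes and dendritic cells (1.51), MHC class II (1.35) and T and NK cells (1.05) were higher in replicate 1. The medians were smaller for B and plasma cells (0.19) and for Kupffer cells and macrophages (0.26). Replicate 2 thus held more of the hepatocyte and mitochondrial genes and less of the monocyte, dendritic cell, MHC class II, T and NK cell genes. These are values of a pair of libraries, with no test.

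**Figure D4:**
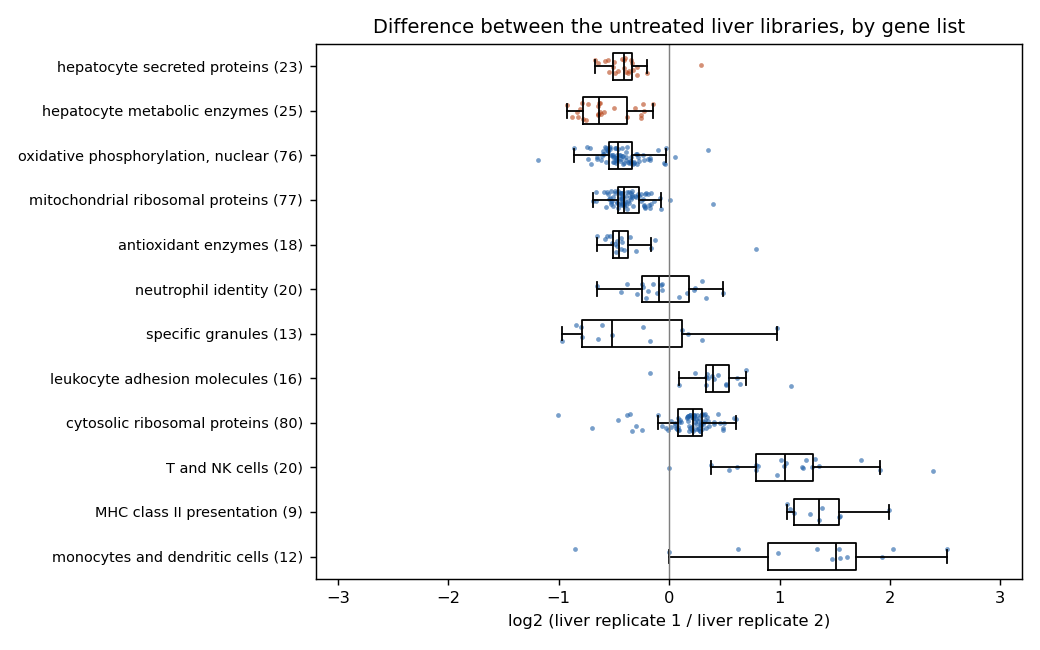
Box plots over the genes of 12 lists of the log2 ratio of untreated liver replicate 1 to replicate 2, with the line as the median and the box as the interquartile range. Hepatocyte, mitochondrial and antioxidant genes lie below 0 (medians from -0.64 to -0.40), and T and NK cell, MHC class II and monocyte genes lie above 1.

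The contrast between liver and blood was itself different in mice given PDC166-coated NPs. There 1624 genes were higher in liver (9.71%) and 1944 lower (11.6%), and the difference between the untreated and the treated contrast passed for 9143 genes (54.7%). Hepatocyte genes summed to 36675 and 52899 CPM in untreated liver and to 697 and 688 CPM in treated liver. S100a8 was at 46567 and 48698 CPM in treated liver and 20448 and 19775 CPM in treated blood, and its liver minus blood difference in untreated mice minus that in treated mice was -3.72 on the log2 scale (adjusted p = 0.000598). For Mrpl38 this value was 5.52 (adjusted p = 5.8e-06), for Camp it was -5.23 (adjusted p = 0.000978), and for Il1b the test of the difference was not passed (0.20, adjusted p = 0.710). Elane, also higher in treated liver, likewise did not pass (-0.28, adjusted p = 0.688), with 55.4 and 29.5 CPM in treated liver and 2.97 and 4.02 CPM in treated blood. The library numbers of the untreated and treated mice fall in separate ranges, while the 5 untreated libraries are numbered together. The labels do not say what these numbers stand for. A difference in handling that follows them, if any, cannot be told apart from therapy in the comparison of the contrasts.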

How the data were processed

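Neutrophil RNA was purified with RNeasy Mini and made into TruSeq Stranded mRNA libraries, per the labels. The authors deposited estimated counts per gene, with gene coordinates, for 9 liver and blood libraries. STAR 2.5.3a, Bowtie2 2.2.5, Partek, DESeq2 and build mm10 are named in the submitters' processing notes, without roles. The counting step and its use of strand are not given in the sources used here, so overlapping antisense genes cannot be told apart. Of the deposited values 44.4% were not whole and were rounded. The 15 rows whose symbol had become a date hold 0.0791% of the counts and are not named.

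The 18474 genes were filtered with filterByExpr, scaled by TMM and fitted with edgeR 4.0.16 (R 4.3.3, limma 3.58.1; robust quasi-likelihood fit) over all 9 libraries in 4 groups, with 5 residual degrees of freedom. The contrast was untreated liver minus untreated blood, with Benjamini-Hochberg adjustment over 16719 genes. Standard errors are the log2 fold change over the square root of F. A fold against a group without counts was taken against 3 counts over that group. Intervals and floors cover counting error only, and the depth of 34724353 to 46384502 counts per library sets what a low level can show. Deviations of same-numbered liver and blood libraries from their group means had correlations of 0.062 and -0.066. With 2 liver libraries these deviations are mirror images, so the correlations cannot decide on pairing. Replicate numbers were not used as pairs in the main fit. They come from the sample titles, and for treated liver they differ from the replicate numbers in the column names. A block by replicate therefore depends on the titles. DESeq2 1.42.0, other scalings, filters, a fit of the 5 untreated libraries, a replicate block and leaving out each library were alternatives. No libraries were identical. The method was tested on simulated data with few changed genes, balanced up and down. That simulation held no broad shift in composition, so it cannot decide on the choice of scaling.

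The comparison and the lists were chosen with earlier results of these data known. The text selects from the 12 largest folds per direction (at least 10 CPM in the higher group, no overlap), over all genes and outside parenchyma lists, from up to 5 members per list with the smallest adjusted p, from called members against their list's majority, and from 20 fixed genes. Apoa1, C3, C6, Cebpe, Chil3, Csf3r, Cybb, Cyp27a1, Dcn, Hbb-bs, Hvcn1, Ly6g, Lyz2, Mrps5, Pkm, Prtn3, Retnlg and Saa1 fall outside this rule and were chosen after their values were seen. Promoters were matched by symbol to RefSeq. Some genes are not reported here.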

Additional observations from a re-analysis of the deposited data

How the results depend on the processing

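With size factors from the neutrophil identity genes, added after seeing the data, 12128 genes were higher in liver and 132 lower, against 5953 and 4797. This scaling sets the identity genes to no change by construction, so the direction of other leukocyte genes is relative to them. Under every other setting tried the counts stayed within 1.5 times. RLE scaling gave 5800 higher and 4953 lower, upper-quartile scaling 5357 and 5551 (49.1% of calls higher against 55.4%, with the median of all genes shifted by -0.22), DESeq2 5863 and 5169, no filter 6028 and 4712, a filter of 5 CPM in 2 libraries 4328 and 4419 of 11236 genes (median shift -0.13), and the 5 untreated libraries alone 5145 and 4100. Without each untreated library in turn, 4635 to 6122 genes were higher and 4485 to 5067 lower. With liver left at 1 library, that library is assumed to vary like the other groups. The replicate block gave 5675 higher and 4565 lower. These alternatives kept 78.0% to 98.8% of the 10750 calls.

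Of 1666 values of single genes under these settings, 1622 kept direction and side of the threshold, 33 lost the call, 8 gained it and 3 changed sign. Camp turned to 0.095 with the replicate block and ranged from -1.19 to 0.34 without single libraries, above 0 without blood replicate 3. H2-Aa ranged from -0.24 to 1.04, below 0 without liver replicate 1. Neither gene was called under those settings, and the cause was not tested. Of 540 list medians, 87 moved beyond the spread between libraries. Genes under about 1 CPM, including Krt19, Clec4f and Timd4, rest on few counts, and with 2 liver libraries their spread is known poorly.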
